A study of Homo sapiens with 4 samples.

Results

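The olfactory receptor genes of human chromosome 11 were examined as a set of genes read as background in RNA recovered with PARP1 from HK-2 cells. They were chosen by name: protein-coding genes of chromosome 11 in GENCODE release 29 whose symbol is OR, a number, letters and a number. The rule gave 165 of 19922 protein-coding genes, of which 27 held or were assigned at least 1 listed site in either immunoprecipitation (IP) and 138 held none. HK-2 is an immortalised line of human proximal tubule epithelium. The study has 4 HK-2 samples, for which the labels give no treatment: 2 inputs and 2 PARP1 IPs, called IP 1 and IP 2, for which a monoclonal Flag antibody was used. The labels name no control IP and do not say whether a tagged PARP1 was expressed, and input samples are not used here. Each IP has 1 list of sites, and a site is 1 mutated base on 1 strand, with the tags (sequenced reads) over it and the number of those tags that carry the mutation. The labels do not tie the IPs to different cultures, and differences between them can be technical.

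Olfactory receptors are G protein-coupled receptors of the sensory neurons of the nose, where each neuron expresses mostly one receptor gene and keeps the others in silent chromatin. Most receptors have their whole coding sequence in a single exon, and many lie in tandem clusters, the largest of them on chromosome 11. A few receptors are known to act outside the nose, among them OR51E2, which responds to short-chain fatty acids and whose mouse counterpart works in the kidney. In HK-2 cells, a kidney line, most of the family has no known role.

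The 7 sequences shown here are the bases around sites in annotated exons of the receptors. They are 1 for each of the 5 receptors with a coding site and 2 from untranslated regions (UTRs), the latter chosen for their repeated letters after the sequences were seen. Each is written in the direction of the receptor gene, and the capital letters are the listed bases at which the sequence was taken. The OR51B6 sequence also holds another listed base of IP 1, chr11:5352021, which is in lower case. The first 3 sites lay in coding sequence on the strand of the gene, the next 2 in coding sequence on the opposite strand, and the last 2 in UTRs.
OR2D2: ggccatttttcttaTgggggttgtgattc
OR4S1: cctccttacagccaTggcctatgaccgct
OR5L1: tgttctctgattcaTttgtgcttagctct
OR51B6: ttccctactgtcgaTcccatgtactctcc
OR10A2: gtgttcctatactcAcattgctgctgcca
OR2AG1: ctttaacattgtcGTGTgtgtgtgtgtgtg
OR10AG1: gtggcttcagtgaaTttttttttaacttt
On GRCh38 they are chr11:6891882-6891910 (OR2D2, minus strand), chr11:48306555-48306583 (OR4S1, plus), chr11:55811929-55811957 (OR5L1, plus) and chr11:5351998-5352026 (OR51B6, plus). The others are chr11:6870360-6870388 (OR10A2, plus), chr11:6787642-6787671 (OR2AG1, plus) and chr11:55967482-55967510 (OR10AG1, minus). The OR2D2 window matched no other gene within 3 mismatches on either strand of the GENCODE 29 transcripts. The OR4S1 window had 16 other genes within 3 mismatches, 15 of them olfactory receptors or receptor pseudogenes, with at least 2 mismatches each. The OR5L1 window came within 3 mismatches of its paralogue OR5L2, that of OR51B6 within 3 of OR51B8P, and that of OR10A2 within 2 of OR10A5. The OR2AG1 deletions lay in a run of alternating G and T, and the OR10AG1 site was in a run of 9 T. The lists do not give the base that replaced the listed one, nor how reads that map to several places were assigned.

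Few of the receptors had sites. In IP 1, 12 of 165 receptor genes (7.27%, interval 3.81 to 12.4) had a site by assignment or within the annotated span, on either strand, where 67.1% of all protein-coding genes did. In IP 2 the count was 22 (13.3%, interval 8.55 to 19.5), against 71.3% of all protein-coding genes. Sites in both IPs were found at 7 receptors (4.24%, interval 1.72 to 8.55), against 61.0% of all protein-coding genes and 55.3% of the 1144 other protein-coding genes of chromosome 11. These intervals are exact Clopper-Pearson intervals at 95% and cover counting error only. PCR copies of 1 molecule may be counted as several reads. The intervals also treat genes as separate, but OR51B6 lies inside OR51B5 and its sites are counted for both. With sites within the span only, 6 receptors were in both IPs. With sites on the strand of the gene alone, 4 receptors were in both IPs, against 54.5% of protein-coding genes. By the lists' own gene identifier 2 were in both, OR2D2 and OR52A1, against 55.5%. The 216 receptor genes of other chromosomes gave 9 in both (4.17%, interval 1.92 to 7.76), close to the share on chromosome 11. Their median span was 3262 bases, against 1121 for the set, so the 2 shares are not matched for span. The 204 receptor pseudogenes of chromosome 11, which are mostly short and unspliced, gave 3 (1.47%).

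Receptor genes are short, and short genes hold fewer sites. The median span of the 165 genes was 1121 bases, against 27152 for all protein-coding genes. All protein-coding genes were ranked by span and cut into 10 classes of equal size. Among the shortest, 2 of 97 receptors (2.06%) and 7.28% of the other genes had sites in both IPs. In the next class the receptors had 0 of 38 and the others 22.6%. Spans of the third class, with a median of 9641 bases, gave 3 of 19 receptors (15.8%) and 36.7% of the others, and those of the fourth gave 1 of 9 (11.1%) and 51.5%. Had the receptors followed the shares of other genes of their span class, 29.1 genes (17.7%) would have had sites in both IPs, against the 7 observed. This is a description, since no test of the set against other genes was made. Span is matched only loosely within the shortest class. Its other genes had a median span of 1977.5 bases, while the 88 receptors with a single exon had 1007. Of 88 receptors with a single exon in every annotated transcript, 2 had sites in both IPs and 83 in neither. Of 77 with a longer, spliced model, 5 had sites in both and 55 in neither.

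**Figure D1:**
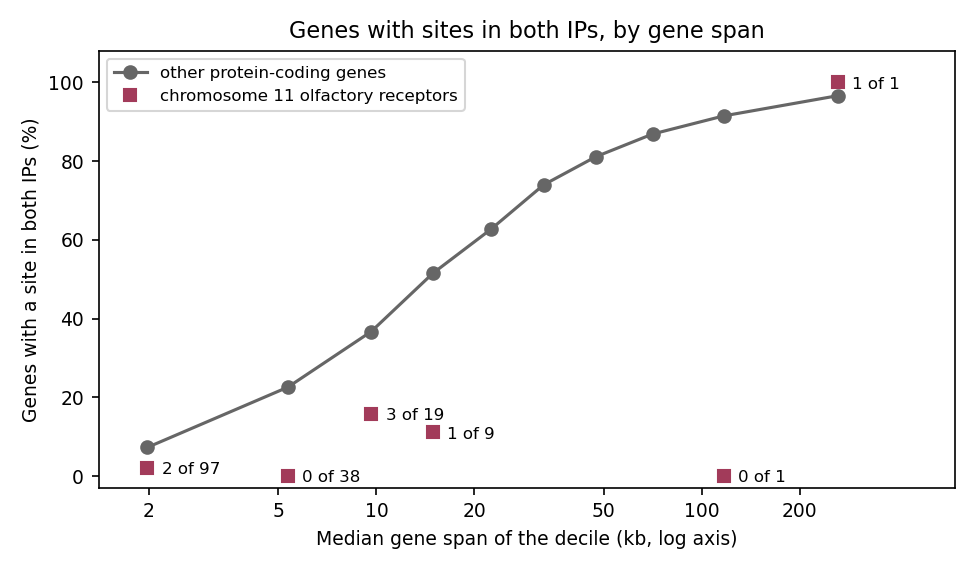
Share of genes with a site in both IPs (%, y axis) against the median gene span of each of 10 span classes of protein-coding genes (kb, log x axis), for chromosome 11 olfactory receptors (squares, with counts) and other protein-coding genes (circles and line). In the 4 shortest classes the receptors lie under the line, at 2 of 97, 0 of 38, 3 of 19 and 1 of 9, and the classes of longest span hold 1 receptor each.

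Coding sequence, the part that every receptor gene has, showed the same order. The 157 kb of receptor coding sequence held 3 sites in IP 1 and 5 in IP 2. That is 19.1 per Mb (interval 3.93 to 55.7, exact Poisson) and 31.8 per Mb (interval 10.3 to 74.2). The coding sequence of the other protein-coding genes of chromosome 11 held 106.9 per Mb (interval 92.8 to 122) and 131 per Mb (interval 115 to 148). The Poisson intervals of receptors and other genes do not overlap in either IP. The receptor sites fell on 7 bases of 5 genes, OR51B6, OR10A2, OR2D2, OR4S1 and OR5L1. On the strand of the receptor there were 1 site in IP 1 and 3 in IP 2.

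**Figure D2:**
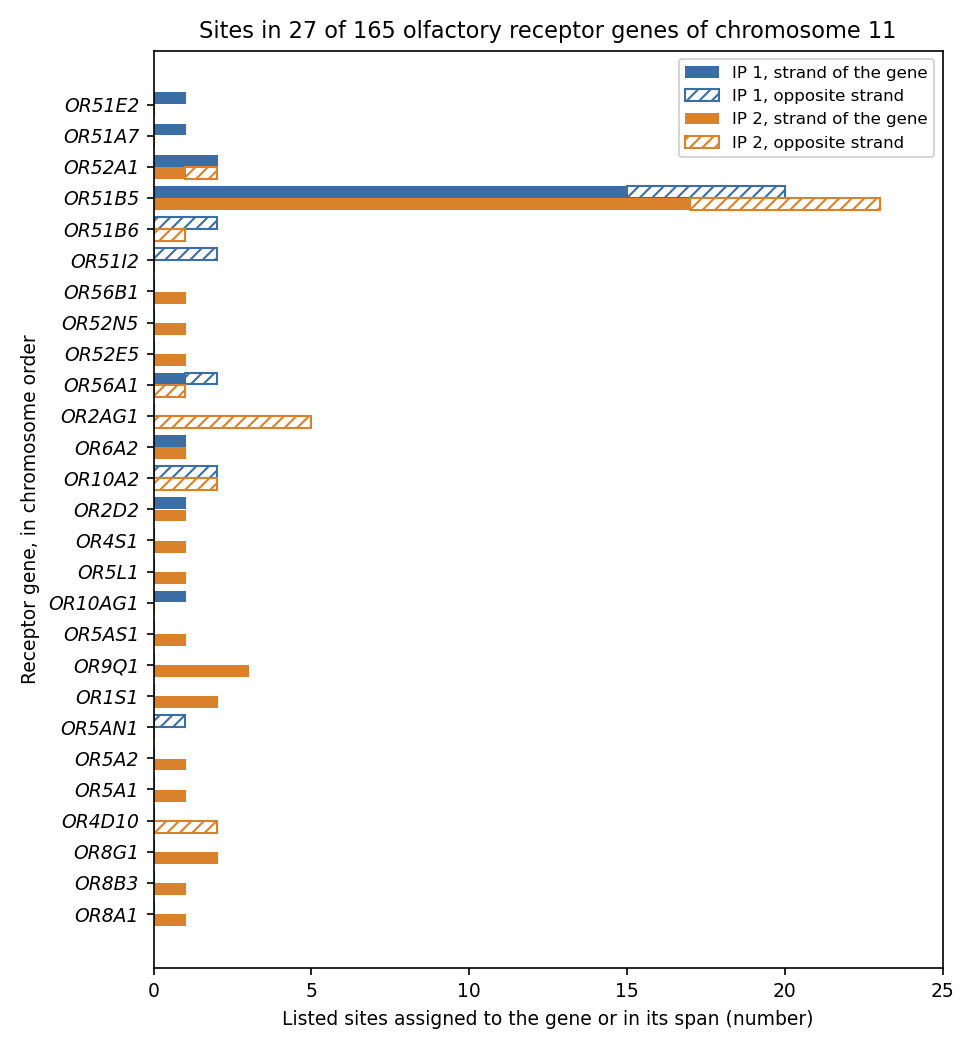
Number of listed sites (x axis) assigned to, or in the span of, each of the 27 receptor genes with a site (y axis, in chromosome order), with IP 1 in blue and IP 2 in orange. Filled bars are sites on the strand of the gene and hatched bars those on the opposite strand. OR51B5 holds 20 and 23 sites, and every other gene at most 5 in an IP.

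OR51B5 held more sites than any other receptor in both IPs. Its annotated span (chr11:5303444-5505652, minus strand, 202209 bases) is the longest of the set and contains 7 other receptor genes. It overlaps the long annotated spans of the globin genes HBG2 and HBE1, but not HBB, HBD or HBG1. It held 20 of the 32 receptor sites of IP 1 and 23 of the 54 of IP 2, a density of 98.9 per Mb (interval 60.4 to 153) and 114 per Mb (interval 72.1 to 171). The corresponding densities over all protein-coding genes were 96.2 and 122 per Mb, within both intervals. By sites on its own strand per 10 kb, OR51B5 was at percentile 59.7 of 1992 other genes of the longest span class in IP 1 and 57.5 in IP 2. All 43 sites lay in introns of OR51B5, between 8.35 and 184 kb from its 5′ end in IP 1 and between 8.73 and 190 kb in IP 2. None of these bases was in both lists. Every site had 2 tags, both mutated, except 1 in IP 1 with 3 of 3.

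The lists assign none of these sites to OR51B5. All 20 and all 23 are assigned to HBG2, a fetal globin gene whose annotated model (chr11:5253190-5505605, minus strand) reaches almost to the same distal start as OR51B5. HBE1, the embryonic globin gene, and AC104389.4 also cover the stretch on the minus strand, so a minus-strand site cannot be given to 1 of these genes. In IP 1, 15 of the 20 sites (75.0%, interval 50.9 to 91.3) were on that strand, and in IP 2, 17 of 23 (73.9%, interval 51.6 to 89.8). Over other protein-coding genes 85.7% and 81.6% of sites were on the strand of the gene. By assignment or span, HBG2 had 29 sites in IP 1 and 35 in IP 2, of which 20 and 24 lay in its GENCODE 29 span. HBE1 had 20 and 23, all by its span and all in the stretch of OR51B5. The globin genes HBB, HBD and HBG1 had none in either IP. In IP 2, 1 base of OR51B5 was listed on both strands.

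**Figure D3:**
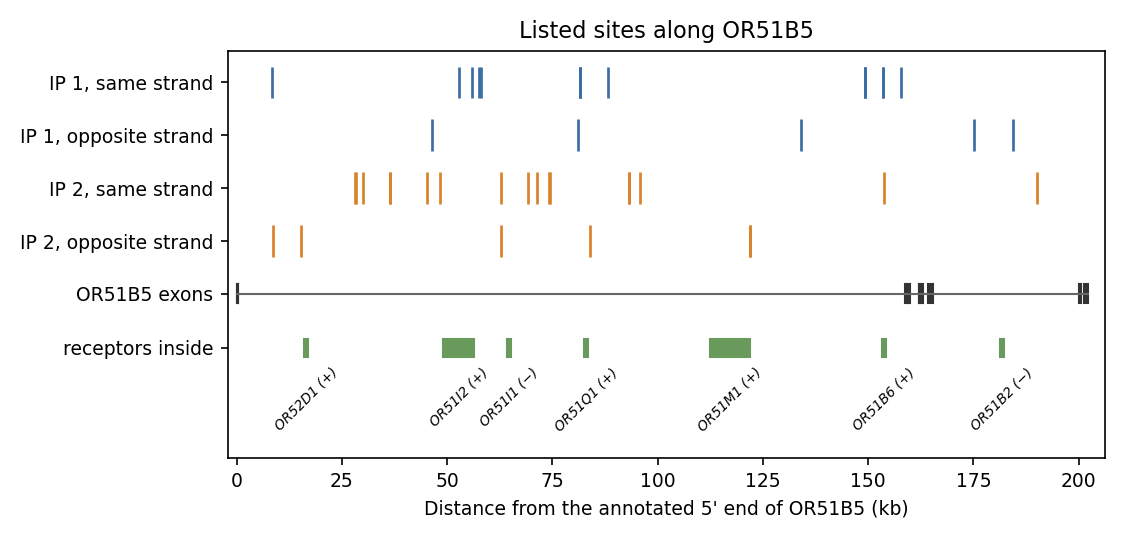
Positions of listed sites along OR51B5, as the distance from its annotated 5′ end (kb, x axis), in rows by IP and strand, above the exons of OR51B5 (black) and the 7 receptor genes inside it (green, with their strand). The 20 sites of IP 1 and 23 of IP 2 lie in introns, and 2 of the 7 receptors inside, OR51I2 and OR51B6, hold any of them.

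Of the receptors inside OR51B5, OR51B6 and OR51I2 held sites. OR51B6 (chr11:5351508-5352446, plus strand) had 2 in IP 1 and 1 in IP 2, all in its coding sequence and all on the opposite strand, which is the strand of OR51B5 and HBG2. OR51I2 (chr11:5449323-5456518, plus strand) had 2 in IP 1, also on the opposite strand, and 0 in IP 2. OR51B2, OR51I1, OR51M1, OR51Q1 and OR52D1 had none.

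OR2D2 had the 1 base that both IPs listed. The base, in the coding sequence of the gene (chr11:6891490-6892599, minus strand, 1 exon), is the capital T of the first sequence above. In IP 1 it had 5 tags, all 5 mutated, and in IP 2 it had 2 tags, both mutated. The 5 mutated tags are the most at any receptor site in either IP, and the mutation is a substitution. The base was 1 of 32 receptor sites of IP 1 (3.12%, interval 0.079 to 16.2) and 1 of 54 of IP 2 (1.85%, interval 0.047 to 9.89). Over all sites, 4.17% of IP 1 and 3.02% of IP 2 were in the other list, within these wide intervals. Within 500 bases on the same strand, 3 receptor sites of IP 1 (9.38%, interval 1.98 to 25.02) had a site of IP 2, against 17.4% of all sites. In the other direction, 2 receptor sites of IP 2 (3.70%, interval 0.452 to 12.75) had a site of IP 1. The share over all sites of IP 2, 12.85%, lies just above that interval.

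OR2D2 lies inside AC087280.2, a long intergenic noncoding RNA gene on the same strand (chr11:6821942-6926877, minus strand). This gene overlaps 5 receptors and had 11 sites in IP 1 and 21 in IP 2, of which 11 and 20 were on its strand. Its density was 104.8 per Mb (interval 52.3 to 188) and 200.1 per Mb (interval 124 to 306). OR10A2 (chr11:6863057-6874717, plus strand) lies inside it too, on the other strand. OR10A2 had 2 sites in IP 1 and 2 in IP 2, and all 4 were on the minus strand, the strand of AC087280.2. None of the sites of OR2D2 or OR10A2 was in an exon of AC087280.2, and none of the bases of OR10A2 was in both lists. The other 3 receptors that AC087280.2 overlaps had no site.

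Of the 7 receptors with sites in both IPs, 3 overlap no gene outside the family, namely OR52A1, OR56A1 and OR6A2. OR6A2, a receptor that responds to aldehydes (chr11:6791736-6799689, minus strand), had 1 site in each IP on its own strand, a UTR base in IP 1 and an intron base in IP 2. OR56A1 (chr11:6019336-6034338, minus strand) had 2 sites in IP 1, 1 on each strand, and 1 in IP 2 on the opposite strand. OR52A1 (chr11:5143219-5154757, minus strand) was assigned 2 sites in each IP, but all 4 lay outside its GENCODE 29 span, 6.10 to 15.96 kb before its start. Each of these sites had 2 tags, both mutated, and no base was in both lists.

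Among the 5 receptors with sites in IP 1 alone, OR51E2 (chr11:4680171-4697854, minus strand) had 1 intron site on its own strand, with 2 of 2 tags mutated, and 0 in IP 2. OR51E1, its neighbour and also a fatty acid receptor (chr11:4643420-4655488, plus strand), had 0 sites in both IPs. OR5AN1, a musk receptor, had 1 site in IP 1 on the opposite strand. OR10AG1 and OR51A7 had 1 each on the strand of the gene, and OR51I2 is described above. The OR51A7 site is assigned to MMP26, a metalloproteinase gene on the same strand that overlaps 10 receptors. MMP26 spans 287503 bases and held 3 sites in IP 1 and 7 in IP 2.

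IP 2 alone had sites at 15 receptors. OR2AG1 (chr11:6783020-6791558, plus strand) had 5, all in a UTR and on the opposite strand, of which 4 were deletions at neighbouring bases of the alternating G and T run shown above. Each of these 4 bases had 6 tags, with 4, 4, 2 and 2 of them mutated. OR9Q1 (chr11:58023881-58181616, plus strand), the second longest receptor gene at 157736 bases, had 3 intron sites on its own strand. On that measure it was at percentile 17.03 of genes of its span class in IP 2, and at 0 sites in IP 1. OR1S1 and OR8G1 had 2 sites each on their own strand, and OR4D10 had 2 on the opposite strand. In each of these 3 genes the 2 sites lay within 500 bases of each other and had 2 of 2 tags mutated. OR4S1 and OR5L1 had 1 coding site each, shown above, also with 2 of 2 tags mutated. OR8A1, among the 5 longest of the set, had 1, and OR2AT4, a receptor also known from skin cells, had none in either IP. The other receptors had 1 site each on their own strand. OR5A1, a receptor for the violet odorant beta-ionone, OR5A2, OR5AS1 and OR8B3 overlap none of the genes named above. OR56B1, OR52N5 and OR52E5 lie inside TRIM5, an antiviral restriction factor gene, which held 4 sites in IP 1 and 17 in IP 2.

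Without OR51B5 and the receptors inside it, the 157 other receptor genes held 10 sites in IP 1 and 29 in IP 2 within their spans. With the sites assigned to OR52A1 from outside its span the numbers were 12 and 31. The sites within spans came to 13.2 per Mb (interval 6.34 to 24.3) and 38.4 per Mb (interval 25.7 to 55.1). The Poisson intervals of the 2 IPs do not overlap, but they treat neighbouring sites as separate. With sites of 1 IP and strand within 500 bases counted once the numbers were 10 and 22, or 13.2 and 29.1 per Mb. No interval was computed for these merged counts, so the lack of overlap holds for unmerged sites only. Without OR51B5 and the receptors inside it, the ratio of IP 2 to IP 1 by sites was 2.90. Over all 165 receptors it was 1.73, so the 2.90 depends on a choice made after seeing the data. The lists as a whole had 1.38, and chromosome 11 outside all annotated genes had 1.75. With neighbours merged the ratio was 2.20 without OR51B5 and 1.60 over all receptors, against 1.72 for chromosome 11 outside genes. The receptor pseudogenes had 6 and 24 sites, and receptor genes of other chromosomes 45 and 72, a ratio of 1.60. The latter set keeps its long genes, such as OR3A2 with 8 and 13 sites, so it is not like the set without OR51B5. With 1 list from each IP the difference between the IPs was not tested.

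**Figure D4:**
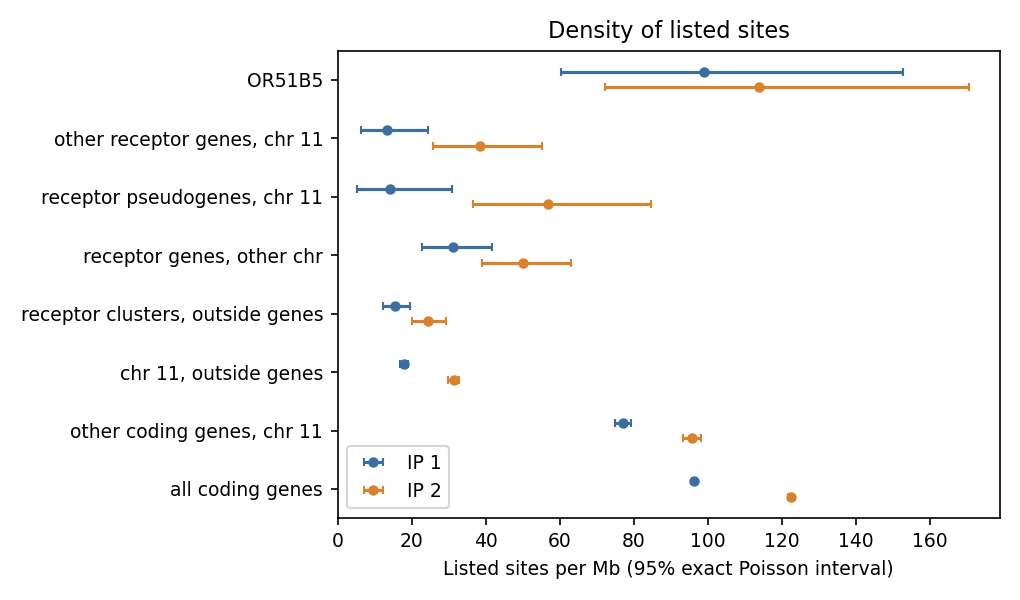
Listed sites per Mb (x axis, with 95% exact Poisson intervals) in 8 sets of regions (y axis), with IP 1 in blue and IP 2 in orange. OR51B5, at 98.9 and 114 per Mb, lies near all coding genes, and the other chromosome 11 receptor genes, at 13.2 and 38.4 per Mb, have intervals that include the density of chromosome 11 outside genes.

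The receptors other than OR51B5 were also set beside sequence outside genes. Between the first and last annotated gene of chromosome 11, sequence outside all genes held 17.9 sites per Mb in IP 1 and 31.3 in IP 2, both within the receptor intervals. Sequence outside genes inside the receptor clusters held 15.5 per Mb (interval 12.1 to 19.5) and 24.3 per Mb (interval 20.02 to 29.2), the second a little under the receptor interval. The spans of other protein-coding genes of chromosome 11 held 77.1 and 95.7 per Mb, above the receptor intervals.

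The receptors fall into 7 groups in which neighbours lie less than 1 Mb apart, and the groups were not alike. The cluster from OR52B4 to OR10A3 (chr11:4367263-7941708), with 65 receptors, the globin locus and several TRIM genes, had sites at 10 receptors in IP 1 and 11 in IP 2. End to end it held 41.7 and 61.8 sites per Mb. End-to-end densities count every listed site in the stretch, most of them outside receptors, and do not describe the receptors themselves. The 47 receptors from OR4C46 to OR5AK2 (chr11:54603069-56989867) had sites at 1 and 2 genes. That stretch held 13.4 and 19.7 sites per Mb end to end. The 21 receptors from OR9Q1 to OR10V1 (chr11:58023881-59713845) had sites at 1 and 5 genes. Their stretch held 67 and 98 sites, or 39.6 and 57.99 per Mb end to end. The 22 receptors from OR6X1 to OR8A1 (chr11:123753488-124582942) had sites at 0 and 3 genes, in a stretch with 2.41 and 16.9 sites per Mb end to end. The 7 receptors from OR4B1 to OR4A47 had 1, OR4S1, in IP 2 alone. OR4C13 with OR4C12, and the lone OR2AT4, had none.

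By the lists' own region classes, 19 of the 32 receptor sites of IP 1 were intronic, 7 intergenic, 5 antisense and 1 in coding sequence. Of the 54 in IP 2, 22 were intronic, 20 intergenic, 9 antisense and 3 in coding sequence. The lists call no receptor site a UTR site. Of the sites they call intergenic, 3 of 7 in IP 1 and 9 of 20 in IP 2 lie in exons of the receptors in GENCODE 29, on either strand. The rest lie in their introns, so the gene models behind the lists differ from GENCODE 29 here. Exons and introns together, 3 of the 7 and 11 of the 20 were on the strand of the receptor. All 5 OR2AG1 sites were on the opposite strand, in exons. Outside OR51B5, 8 of 12 pairs of a site and a receptor in IP 1 (66.7%, interval 34.9 to 90.1) and 20 of 31 in IP 2 (64.5%, interval 45.4 to 80.8) were on the strand of the receptor. Over other protein-coding genes the shares were 85.7% and 81.6%, inside the first interval and above the second.

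Most receptor sites were at the lowest depth the lists contain. Sites with 2 tags, both mutated, were 30 of 32 in IP 1 (93.8%) and 49 of 54 in IP 2 (90.7%), against 82.7% and 83.3% of all sites and 93.4% and 93.9% of all intergenic ones. Substitutions were 31 of 32 in IP 1 and 46 of 54 in IP 2. Deletions were 1 and 5, and insertions 0 and 3. All sites of the lists were substitutions in 72.5% and 73.5% of cases, and intergenic sites in 81.3% and 81.9%. Sites with 3 or more mutated tags numbered 2 in IP 1, in OR2D2 and OR51B5, and 3 in IP 2, in OR2AG1 and OR52E5. The OR52E5 site had 3 of 3 tags mutated.

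The genes that work with the receptors in the nose were read in the same way. Of 15 genes of the olfactory signal chain and receptor transport, 8 had sites in both IPs (53.3%, where other genes of their span classes had 61.8%) and 7 in neither. The olfactory channel subunits CNGA2 and CNGA4, the marker protein OMP, the G protein subunit GNG13, STOML3 and the receptor chaperones RTP1 and RTP2 had 0 in both. Those with sites were long genes, such as the adenylyl cyclase ADCY3, with 15 sites on its strand in IP 1 and 22 in IP 2. GNAL, the olfactory G protein alpha subunit, had 7 and 5. Of 14 genes of receptor choice and nuclear organisation, 12 had sites in both (85.7%, against 71.7% for their spans). Most of these act in many tissues, such as the demethylase KDM1A, with 18 and 17 on its strand, and the heterochromatin protein CBX5, with 13 and 17. Of the 13 markers of olfactory sensory neurons, 6 had sites in both IPs (46.2%, against 56.9% for their spans) and 7, OMP among them, in neither. Apart from NCAM2 and GAP43, these markers are also among the 15 signal chain and transport genes. The 7 without sites are the same 7 genes, so the 2 lists are not separate observations.

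Other families that are mostly silent outside their own tissue were counted in the same way. None of 24 bitter taste receptor genes (TAS2R) had sites in both IPs, where their span classes had 14.2%, and 20 had none in either. Of 94 hair keratin-associated protein genes (KRTAP), 1 had sites in both (1.06%, against 9.11%). None of the 4 MRGPRX receptor genes of chromosome 11 did, where their span classes had 25.7%, and 4 genes are too few to set against that share. The median spans of the TAS2R and KRTAP genes, 1059 and 875.5 bases, were under the 1977.5 of other genes in the shortest class. Of 17 epithelial and renal tubule markers, 12 had sites in both IPs (70.6%, against 71.8% for their spans). PAX8, a renal lineage factor, had 23 and 21 on its strand, and CDH2, the cadherin of proximal tubule cells, had 30 and 30. Of the proximal tubule genes, the endocytic receptors LRP2 and CUBN had 2 and 4, and 1 and 6, on their strand, GGT1 had 3 and 6, SLC34A1 had 1 and 0, and AQP1 and ANPEP had none. Of the 11 globin and TRIM genes listed for the first cluster, 6 had sites in both IPs (54.5%, against 56.7% for their spans). With sites on the strand of the gene alone, 5 did. HBG2 and HBE1 are among them and share the sites of the OR51B5 stretch, so these genes are not counted independently. Without values from the inputs, the amount of an RNA in the cells and its recovery in the IPs cannot be told apart.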

How the data were processed

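RNA from 2 PARP1 IPs of HK-2 cells was analysed. The deposited files hold, per the file headers, counts of tags and of mutated tags at each site, a score that equals the mutated tags in the authors' lists, and the authors' FDR, a q-value. The authors used bcl2fastq, TopHat2 and GRCh38, per the submitters' processing notes. No source used here gives their versions, the site caller, its thresholds or any duplicate removal. IP 1 listed 166248 sites and IP 2 listed 229782, with a median of 2 tags, so single sites are imprecise. Library depth is not known.

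Genes and spans came from GENCODE 29, matched by identifier without its version. Of 20912 identifiers in the lists, 208 had no match. A site belonged to a gene by identifier or by lying in its span. Sites were shared when base and strand were equal. Span classes are 10 equal groups of protein-coding genes. Intervals are exact, at 95% (scipy 1.17.1). No test between groups was possible, with 1 list for each IP and no list for the inputs. The matching was tested on simulated data. Windows of 29 bases, or 30 at OR2AG1, came from the GENCODE 29 transcripts. The report shows 1 for each receptor with a coding site and 2 chosen in UTRs, and 1 item is not reported here.

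Members and gene lists were chosen with earlier results of these data known. Named receptors are those with sites in both IPs, up to 5 with most sites in 1 IP alone for each IP, the 3 with most mutated tags at a site, the 5 longest, OR51E1 and OR51E2, plus overlapping genes. The other receptors with 1 site were named after seeing their values, because they are few. Other settings tried were stricter sites, strand, wider spans, subsets of receptors, the assignment rule, looser overlap and leaving out each IP. Leaving out OR51B5 and merging neighbouring sites were chosen after seeing the data. OR51C1P and OR5D3P, protein-coding in the annotation, do not match the symbol rule.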

Additional observations from a re-analysis of the deposited data

How the results depend on the processing

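No paired analysis was possible because the lists cover the IPs alone and the inputs have no list. The count of 7 receptors with sites in both IPs was 29 with spans widened by 10 kb, 4 on the strand of the gene, 3 among the 119 receptors overlapping no gene outside the family, 2 among the 113 with a span under 5 kb, 2 by identifier only, 1 with an FDR below the most common and 0 with 3 or more mutated tags. With a single IP it was 12 to 22. The total of 86 receptor sites in the 2 IPs was 208 with wider spans, 43 without OR51B5 and the receptors inside it, 30 without overlapping genes, 13 by identifier, 12 with a span under 5 kb, 12 at the lower FDR and 5 with 3 or more mutated tags. It was 32 to 54 with a single IP. The mean density of 42.8 sites per Mb was 27 without overlapping genes, 25.8 without OR51B5, 6.26 at the lower FDR and 2.61 with 3 or more mutated tags. It was 31.3 to 54.3 with a single IP. The share of IP 1 sites at the same base in IP 2, 3.12%, was 25% (1 of 4) with a span under 5 kb, and 0% without overlapping genes (of 8), at the lower FDR (of 3) and with 3 or more mutated tags (of 2). Settings with fewer genes or sites lower the counts by construction, and wider spans raise them. The cause of the changes in density and in the share was not tested. With 2 tags at most sites, a difference of a few sites between receptors is not resolved.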
